A study of Mus musculus with 13 samples.

Results

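The genes described here encode the contractile and calcium-handling proteins of skeletal muscle, together with some of its energy enzymes, and were followed in RNA from mouse mandibular condylar cartilage. They were picked by gene symbol from a named list of 42 genes. All 42 were among the 18748 genes of the deposited table, and 40 of them were among the 14067 genes with enough counts to be tested. Mandibular condylar cartilage caps the lower jaw where it meets the skull at the temporomandibular joint. The study compared 7 libraries of young mice (2 months old) with 6 libraries of aged mice (18 months old), both from polyadenylated RNA. The labels name no strain, sex, treatment or allele for either group. They number the libraries without saying whether each came from 1 mouse, so p-values measure the spread between these libraries, which may be technical. Libraries are called by age and number below.

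In a muscle fibre, thick filaments of myosin pull on thin filaments of actin within repeating units called sarcomeres. Calcium leaves the sarcoplasmic reticulum through a release channel, binds troponin C on the thin filament and so frees actin for myosin, and a calcium pump returns it to the store. Fast and slow fibres use different genes for many of these proteins, so that pairs of fast-type and slow-type isoforms tell the fibre types apart. The condyle is not itself a muscle, but a chewing muscle, the lateral pterygoid, inserts on its neck.

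The muscle genes were higher in the aged libraries, and the amount varied widely between libraries of the same age. Together the 42 genes took 0.0932, 0.241 and 0.843% of a library's counts in the young (lowest, median and highest) and 0.944, 1.83 and 2.91% in the aged libraries. The ranges did not overlap on counts, with young 2 (0.843%) just below aged 1 (0.944%). On the TPM scale (transcript abundance, scaled for gene length and depth) the same genes took 0.158 to 1.43% in young and 1.29 to 4.65% in aged libraries, and 4 of 6 aged libraries lay above all young ones. Of the 40 genes tested, 35 rose and 0 fell by edgeR's quasi-likelihood test at an adjusted p of 0.05, where 24.7% of all tested genes rose and 21.6% fell. Scaled by library size alone, without TMM factors, 36 of the 40 rose and 0 fell, while all tested genes split into 7034 higher and 1253 lower against 3471 and 3033 with TMM. No gene of the list was lower at an unadjusted p under 0.05 either, and 0 were called lower by DESeq2 or limma. Every aged library lay above every young library in TPM for 7 of the 40 genes, against 10.4% of all tested genes. The median log2 fold change (aged over young) was 2.05 over the 40 genes and 0.01 over all tested genes.

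**Figure D1:**
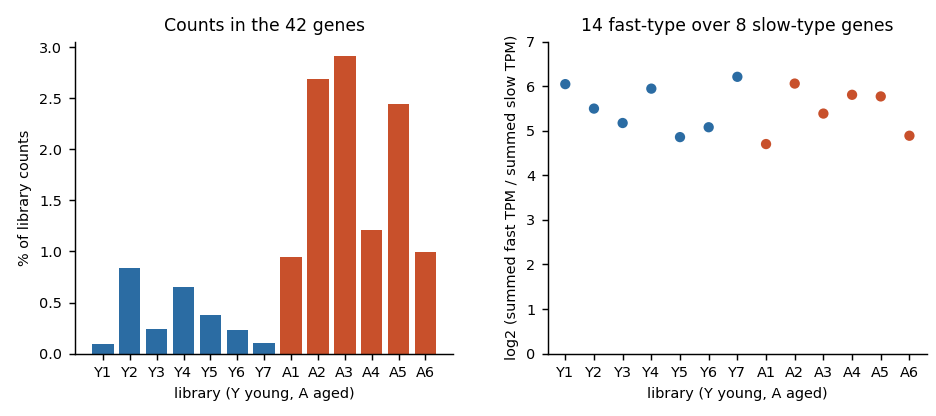
The left panel shows the percentage of each library's counts in the 42 genes (bars, Y1 to Y7 young and A1 to A6 aged), which ran from 0.0932 to 0.843% in young and from 0.944 to 2.91% in aged libraries. The right panel shows log2 of summed TPM of the 14 fast-type genes over that of the 8 slow-type genes in each library (points), which ran from 4.86 to 6.21 in young and from 4.70 to 6.06 in aged libraries. Mybpc1 was the largest part of the slow-type sum, and its tie to slow fibres was not tested.

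These are bulk libraries, in which more muscle cells and more muscle RNA per cell cannot be told apart. To check the cartilage label, Col2a1, the main cartilage collagen, was read and stood at 8543, 11082 and 14392 TPM in young and 2048, 2583 and 5879 TPM in aged libraries. It was lower in the aged libraries (log2 fold change −1.89, edgeR adjusted p = 3.6e-05). Of 8 chondrocyte markers 5 were lower and 1 was higher with age, where 21.6% of all tested genes fell and 24.7% rose. The 8 markers summed to 12782 to 19602 TPM in young and 7351 to 16839 TPM in aged libraries. The members other than Col2a1 are named after their values were seen. Col9a1, a collagen of the cartilage fibril surface, fell, with 239.9 to 385 TPM in young and 3.93 to 22.3 TPM in aged libraries. Matn1, a cartilage matrix protein, fell from a low level, at 0.51 to 1.11 TPM in young and 0.15 TPM or less in aged libraries. Hapln1 (−0.67) and Snorc (−0.71) also fell, Comp rose (1.02), and Acan (−0.06) and Sox9 (0.11) were not called. All 8 erythroid genes rose (median log2 fold change 3.66), with the highest, the globin Hba-a1, up by 3.31. Their summed level was 1833 to 7060 TPM in young and 8457 to 62556 TPM in aged libraries, with no overlap. Within the aged group, aged 3 had the highest share of muscle counts (2.91%) and the lowest erythroid sum (8457 TPM). The part of these changes in the muscle gene result was not tested. Depth was 17531700 to 18203400 counts in young and 16356800 to 17876700 in aged libraries (rounded to 100).

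**Figure D2:**
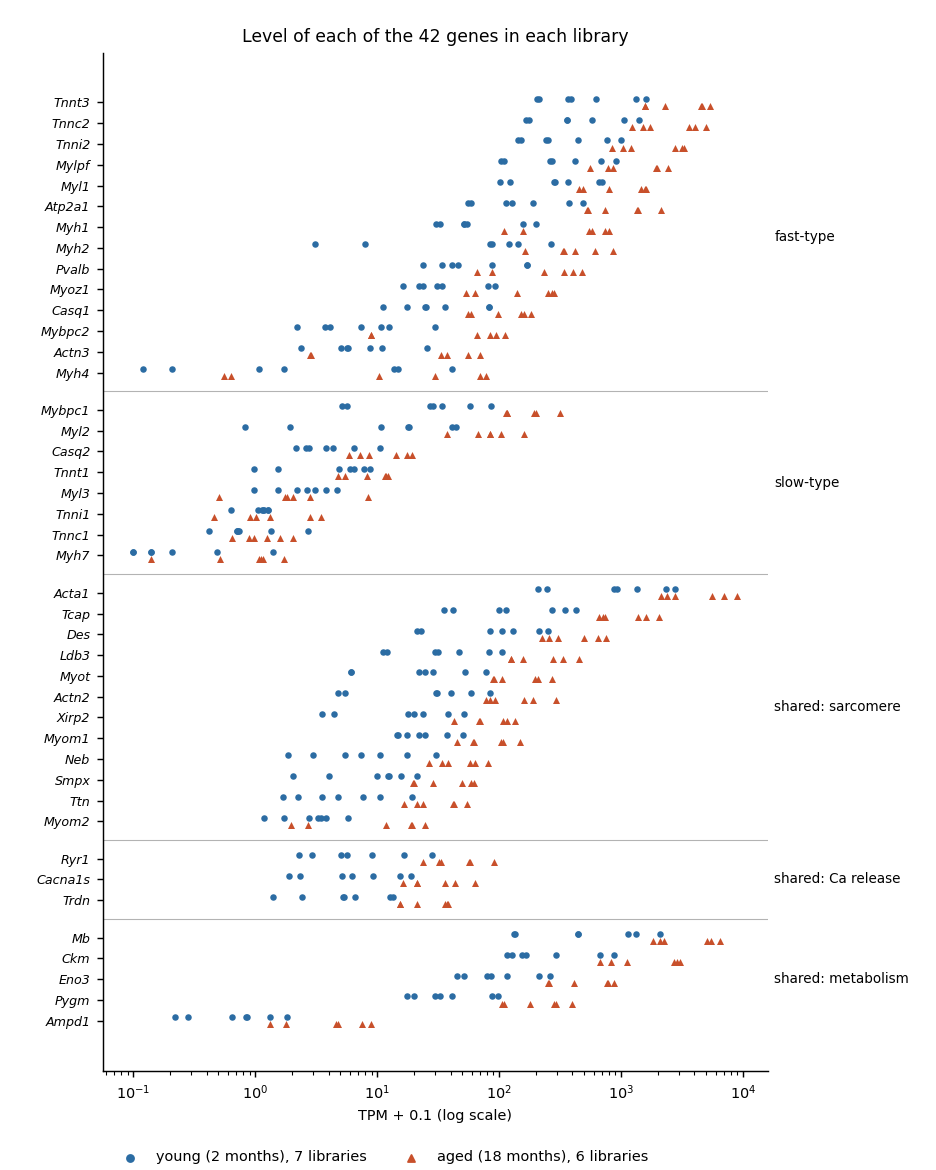
Each row is 1 of the 42 genes and each point 1 library (TPM + 0.1 on a log axis; blue circles, 7 young; red triangles, 6 aged), with genes grouped by class and ordered by aged median. The aged median lies to the right of the young median for every gene but Myl3 (1.82 against 2.54 TPM), and Acta1 reaches 8987 TPM.

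Of the adult myosin heavy chains, which are the motors of the thick filament, the IIx chain Myh1 and the IIa chain Myh2 rose, the IIb chain Myh4 was not called, and the slow chain Myh7 reached no more than 1.63 TPM in any library. Myh1 (gene ID 17879) stood at 30.2, 51.6 and 199 TPM in the young libraries (lowest, median and highest) and 109.9, 564 and 802 TPM in the aged ones. Its log2 fold change was 2.49 ± 0.57 (SE; adjusted p = 0.00293 by edgeR), although the 2 lowest aged libraries lay inside the young range. Myh2 (gene ID 17882) stood at 3.00, 86.8 and 268 TPM in young and 164, 380.2 and 857 TPM in aged libraries, with the young values spread over a far wider ratio than the aged ones. It rose by 2.06 ± 0.74 (SE; adjusted p = 0.036 by edgeR) on the log2 scale. That call was lost without any filter (adjusted p = 0.0514) and on leaving out young 3, 5 or 6 or aged 2, 3, 5 or 6. Those adjusted p values ran from 0.0502 (without aged 6) to 0.0746 (without aged 3). Myh4 (gene ID 17884), the chain of the fastest mouse fibres, varied from library to library at both ages. In young libraries 1 to 7 it stood at 14.8, 1.64, 0.11, 41.0, 0.02, 0.98, 13.7 TPM, and in aged libraries 1 to 6 at 0.54, 29.6, 10.3, 69.1, 77.8, 0.46 TPM. High and low libraries occurred at both ages, and the log2 fold change of 1.57 ± 1.22 (SE; adjusted p = 0.316 by edgeR) was not called. With 1 library left out it ran from 1.03 (without aged 5) to 2.53 (without young 4), and was called in none of these cases. Myh7 (gene ID 140781) stood at 0, 0.04 and 1.30 TPM in young and 0.04, 1.00 and 1.63 TPM in aged libraries. Its log2 fold change of 1.58 ± 0.89 (SE; adjusted p = 0.167 by edgeR) was not called, and without young 5, the highest young library at 1.30 TPM, it was 3.06 (adjusted p = 0.00989).

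**Figure D3:**
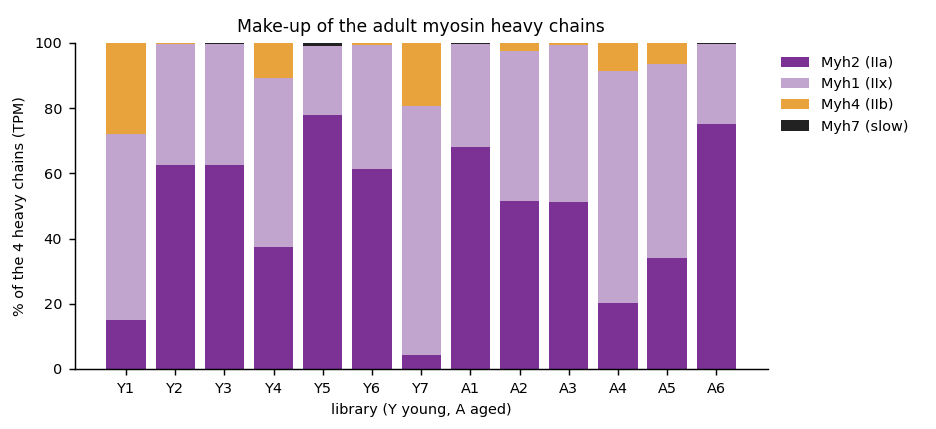
Stacked bars give the percentage that each of the 4 adult myosin heavy chains took of their summed TPM in each library (Y1 to Y7 young, A1 to A6 aged). Myh2 takes between 4.24% (Y7) and 78.0% (Y5), and Myh7 is too small to see in most bars.

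The make-up of the heavy chains varied widely between libraries of either age. The share of Myh2 averaged 45.9 ± 27.7% over the 7 young and 49.99 ± 20.5% over the 6 aged libraries (SD). It took 4.24 to 78.0% of the summed TPM of the 4 chains in young and 20.2 to 75.0% in aged libraries, Myh1 21.1 to 76.4% and 24.7 to 71.3%, and Myh4 0.0130 to 27.9% and 0.103 to 8.49%. Myh7 took at most 0.842% in any library. Young 1 and young 7, which held the least muscle RNA, had the largest Myh4 shares (27.9 and 19.3%), while young 5, aged 1 and aged 6 were mostly Myh2 (78.0, 68.2 and 75.0%). The expected counts of Myh1 and Myh2 were fractional in all 13 libraries and those of Myh4 in 4, as happens where a read fits more than 1 gene. The split between these 3 near-identical chains is therefore uncertain.

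The 3 fast heavy chain genes are neighbours on mouse chromosome 11, and the stretches around their annotated starts show how alike and how different the IIa, IIx and IIb promoters are. The sequences are RefSeq windows on build GRCm38.p6, from 250 bases before to 50 bases after the start, for Myh2 (chr11:67170777-67171076, forward strand), Myh1 (chr11:67199852-67200151, forward strand) and Myh4 (chr11:67237562-67237861, forward strand). The deposited counts were made on another build (GRCm39), and no coordinate was carried between the builds. Capitals mark matches on either strand to a MEF2 box (bound by MEF2 factors), a CArG box (bound by serum response factor) or TATAAA.
Myh2: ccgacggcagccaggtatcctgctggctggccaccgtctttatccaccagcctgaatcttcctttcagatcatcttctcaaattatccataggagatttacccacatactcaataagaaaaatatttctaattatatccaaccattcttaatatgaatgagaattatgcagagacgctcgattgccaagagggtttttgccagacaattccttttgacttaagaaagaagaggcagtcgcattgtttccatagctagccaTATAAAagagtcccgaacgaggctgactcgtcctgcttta
Myh1: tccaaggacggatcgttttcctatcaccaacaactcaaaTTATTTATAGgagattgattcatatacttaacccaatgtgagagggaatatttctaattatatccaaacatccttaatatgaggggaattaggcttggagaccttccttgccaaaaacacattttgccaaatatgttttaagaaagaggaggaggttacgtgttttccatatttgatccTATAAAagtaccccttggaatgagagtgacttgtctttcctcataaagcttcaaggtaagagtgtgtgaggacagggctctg
Myh4: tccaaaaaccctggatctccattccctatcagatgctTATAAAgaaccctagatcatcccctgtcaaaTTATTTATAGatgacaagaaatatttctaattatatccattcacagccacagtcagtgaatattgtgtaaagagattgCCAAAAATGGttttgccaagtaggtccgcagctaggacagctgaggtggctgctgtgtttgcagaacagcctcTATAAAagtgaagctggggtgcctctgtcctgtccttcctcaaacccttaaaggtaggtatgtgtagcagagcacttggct
Myh1 and Myh4 each held 1 MEF2 box, Myh4 alone of the 3 held a CArG box, and Myh2 held neither. TATAAA was found 1 time in Myh2, 2 times in Myh1 and 3 times in Myh4, and in Myh1 and Myh4 1 of these matches lies inside the MEF2 box on the other strand. In Myh2 the match begins 10 bases after the annotated start, while in Myh1 and Myh4 the match nearest the start begins 32 and 31 bases before it. A match is a description of letters and does not show binding.

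Windows of the same length were found for 32 of the 42 genes (39 windows). A MEF2 box was in 6 of the 39 windows (15.4%; Casq2, Myh1, Myh4, Pvalb, Ttn and Xirp2) and in 3.19% of the 32851 windows of all genes. A CArG box was in 6 windows (15.4%; Acta1, Ldb3, Myh4, Myl3 and Myom1) and in 1.63% of all windows. The E-box CANNTG, the site type of MyoD and its relatives, was in 32 windows (82.1%) and in 72.3% of all. TATAAA was in 7 windows (17.9%) and in 13.6% of all. Both strands were searched, and these shares are given with no test.

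The fast-type light chains, which stiffen and tune the myosin lever arm, rose with Myh1. Myl1, the fast essential light chain, stood at 101, 287 and 699.8 TPM in young and 449, 1130 and 1596 TPM in aged libraries. It rose by 1.56 ± 0.48 (SE; adjusted p = 0.0166 by edgeR) on the log2 scale, and the ranges overlapped. Mylpf, the fast regulatory light chain, stood at 104, 274 and 905 TPM in young and 556, 1394 and 2451 TPM in aged libraries, with a log2 fold change of 1.91 ± 0.54 (SE; adjusted p = 0.0103 by edgeR) and overlapping ranges. Their slow-type partners did not behave alike. Myl2, the slow and cardiac regulatory light chain, rose from a low level, at 0.73, 17.7 and 44.5 TPM in young and 37.5, 84.1 and 161 TPM in aged libraries. On the log2 scale it rose by 2.25 ± 0.60 (SE; adjusted p = 0.00787 by edgeR), and only aged 4 (37.5 TPM) lay inside the young range. Myl3, the slow and cardiac essential light chain, stood at 0.87, 2.54 and 4.56 TPM in young and 0.41, 1.82 and 8.29 TPM in aged libraries. Its log2 fold change of 0.07 ± 0.52 (SE; adjusted p = 0.929 by edgeR) was not called, and without aged 3 (8.29 TPM) it was −0.61.

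On the thin filament, the 3 subunits of fast troponin were among the most abundant transcripts of the list and rose by similar amounts. Tnnt3, the fast subunit that ties troponin to tropomyosin, stood at 203, 388 and 1606 TPM in young and 1583, 3421 and 5333 TPM in aged libraries. It rose by 2.29 ± 0.53 (SE; adjusted p = 0.00336 by edgeR) on the log2 scale. Tnni2, the fast inhibitory subunit, stood at 143, 254 and 1003 TPM in young and 841, 1981 and 3283 TPM in aged libraries, with a log2 fold change of 2.31 ± 0.53 (SE; adjusted p = 0.00301 by edgeR). Tnnc2, the fast calcium-binding subunit, stood at 165, 361 and 1410 TPM in young and 1222, 2685 and 5021 TPM in aged libraries, with a log2 fold change of 2.35 ± 0.54 (SE; adjusted p = 0.00324 by edgeR). For each of the 3, aged 1 lay below young 2, the highest young library, so the ranges overlapped. The slow subunits were low in every library. Tnnt1 stood at 0.88, 5.93 and 8.59 TPM in young and 4.67, 9.79 and 12.3 TPM in aged libraries, and its log2 fold change of 0.76 ± 0.42 (SE; adjusted p = 0.156 by edgeR) was not called. Tnni1 (0.53 to 1.17 and 0.36 to 3.37 TPM in young and aged) and Tnnc1 (0.32 to 2.60 and 0.55 to 1.94 TPM) had too few counts to be tested.

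Myosin-binding protein C, which brakes the myosin heads, had fast and slow forms of more similar level than the other pairs by median. Its median log2 of fast over slow TPM was −2.72 in young and −1.76 in aged libraries. For calsequestrin these medians were 3.02 and 3.17, and in some libraries, such as aged 1 and aged 6, that pair was the closer. The fast form Mybpc2 stood at 2.12, 7.24 and 29.9 TPM in young and 8.87, 74.4 and 113 TPM in aged libraries, with a log2 fold change of 2.57 ± 0.69 (SE; adjusted p = 0.00822 by edgeR). Aged 1 and aged 6 (8.88 and 8.87 TPM) lay inside the young range. Mybpc1 was listed as the slow form, but whether it marked slow fibres here was not tested. Among slow-type genes Mybpc1 reached 315 TPM and Myl2 161 TPM, while Myh7 reached no more than 1.63 TPM. Mybpc1 stood at 5.04, 28.6 and 85.9 TPM in young and 113, 156 and 315 TPM in aged libraries. It rose by 2.24 ± 0.56 (SE; adjusted p = 0.00519 by edgeR) on the log2 scale, with no overlap between the ages.

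Other fast-type genes of the sarcomere were less even. Actn3, the fast-fibre alpha-actinin of the Z-disc, stood at 2.30, 5.64 and 25.7 TPM in young and 2.73, 35.4 and 69.0 TPM in aged libraries. Its log2 fold change of 1.82 ± 0.71 (SE; adjusted p = 0.0501 by edgeR) was not called. It was called by DESeq2 (1.83, adjusted p = 0.0303), without TMM scaling (adjusted p = 0.0257) and without young 4, aged 1 or aged 6 (2.33, 2.06 and 2.06). In the other alternatives it ran from 1.31 (limma with 1 TPM added, adjusted p = 0.185) to 1.88 (without young 7, adjusted p = 0.0683) and was not called. Young 4 was its highest young library at 25.7 TPM. Myoz1, a Z-disc protein that binds calcineurin in fast fibres, rose by 2.02 on the log2 scale (edgeR adjusted p = 0.00514), at 16.2 to 91.8 and 53.4 to 282 TPM in young and aged libraries.

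All 12 genes listed as sarcomere and cytoskeleton genes of both fibre types rose, with log2 fold changes between 1.71 (Myom1) and 2.63 (Tcap). Skeletal alpha-actin, Acta1 (gene ID 11459), was the highest gene of the list and stood at 209, 924 and 2796 TPM in the young libraries (lowest, median and highest) and 2124, 4178 and 8987 TPM in the aged ones. The log2 fold change was 1.90 ± 0.58 (SE; adjusted p = 0.0166 by edgeR), and the 3 lowest aged libraries lay inside the young range. Acta1 alone took 13.2 to 23.2% in young and 15.6 to 19.3% in aged libraries of the TPM of the 42 genes. Its RefSeq window (GRCm38.p6, chr8:123894726-123895025, reverse strand) is shown because it carried both a CArG box, beginning 73 bases before the start, and a TATAAA match, in capitals.
Acta1: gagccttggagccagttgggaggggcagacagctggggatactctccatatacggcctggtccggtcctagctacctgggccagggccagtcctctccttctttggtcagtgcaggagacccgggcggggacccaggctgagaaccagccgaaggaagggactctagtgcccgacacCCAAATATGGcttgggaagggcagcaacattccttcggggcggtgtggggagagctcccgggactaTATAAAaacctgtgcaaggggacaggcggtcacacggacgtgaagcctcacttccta

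Tcap, the cap of titin at the Z-disc, stood at 35.5, 115 and 426 TPM in young and 657, 1055 and 2042 TPM in aged libraries and had the largest log2 fold change of the 40 tested genes, 2.63 ± 0.57 (SE; adjusted p = 0.00206 by edgeR). Its ranges did not overlap, nor did those of 2 further Z-disc genes, Ldb3 (log2 fold change 2.27), a PDZ-LIM scaffold, and Myot (2.30), which bundles actin. Giant proteins that set filament length rose by like amounts, titin Ttn by 2.07 and nebulin Neb by 2.11. Actn2, the alpha-actinin of all striated fibres, rose by 1.94. At the M-line, Myom1 rose by 1.71 ± 0.33 (SE; adjusted p = 0.00107 by edgeR) and Myom2 by 2.03 ± 0.55 (SE; adjusted p = 0.00839 by edgeR). Myom2 is richer in fast fibres although it was listed with the shared genes, where it made up at most 0.382% of the summed TPM of the 20 shared genes in any library. Myom2 was nevertheless low in aged 1 and aged 6 (2.63 and 1.87 TPM), inside the young range of 1.09 to 5.64 TPM. Desmin Des, the intermediate filament of muscle, rose by 1.84, Smpx, a small costamere protein, by 1.85, and Xirp2, an actin-binding repeat protein, by 1.89.

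**Figure D4:**
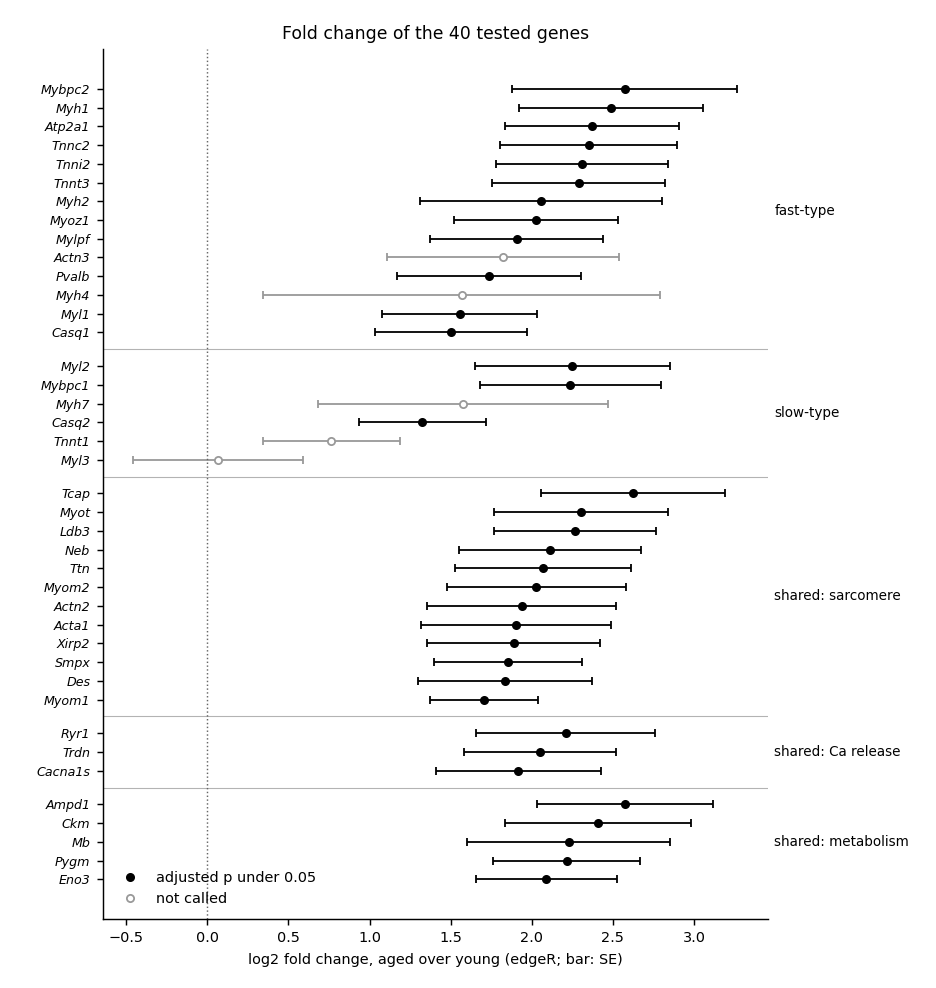
Points are log2 fold changes (aged over young, edgeR) with bars of 1 SE for the 40 tested genes, filled where the adjusted p was under 0.05 and open where it was not. The filled points lie between 1.33 (Casq2) and 2.63 (Tcap), and the 5 open points are Actn3, Myh4, Myh7, Tnnt1 and Myl3.

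The 3 shared calcium release genes and the fast calcium pump all rose. Ryr1, the release channel of the sarcoplasmic reticulum, stood at 2.17, 5.57 and 27.9 TPM in young and 23.6, 44.9 and 90.4 TPM in aged libraries. It rose by 2.21 ± 0.55 (SE; adjusted p = 0.00511 by edgeR) on the log2 scale, with only aged 6 (23.6 TPM) inside the young range. Cacna1s, the voltage sensor that opens it, rose by 1.92 ± 0.51 (SE; adjusted p = 0.00724 by edgeR), and Trdn, triadin, which anchors calsequestrin to the channel, rose by 2.05 ± 0.47 (SE; adjusted p = 0.00303 by edgeR) without overlap. Atp2a1, the fast-fibre calcium pump SERCA1, stood at 55.9, 127 and 489.8 TPM in young and 523, 1043 and 2110 TPM in aged libraries, with a log2 fold change of 2.37 ± 0.54 (SE; adjusted p = 0.00285 by edgeR) and no overlap.

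The calcium-binding proteins also rose. Casq1, the fast-type calsequestrin that stores calcium, stood at 11.2, 25.2 and 83.4 TPM in young and 55.4, 124 and 182 TPM in aged libraries, with a log2 fold change of 1.50 ± 0.47 (SE; adjusted p = 0.0176 by edgeR). Casq2, the slow and cardiac form, stood at 2.06, 3.71 and 10.4 TPM in young and 5.74, 11.3 and 19.4 TPM in aged libraries, with a log2 fold change of 1.33 ± 0.39 (SE; adjusted p = 0.0131 by edgeR). Both ranges overlapped. Pvalb, parvalbumin, a soluble calcium buffer of fast fibres, stood at 23.9, 45.6 and 170.4 TPM in young and 66.0, 288 and 483 TPM in aged libraries. Its log2 fold change of 1.73 ± 0.57 (SE; adjusted p = 0.0224 by edgeR) lost its call without aged 2 (1.56, adjusted p = 0.0504) or aged 5 (1.47, adjusted p = 0.0561).

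All 5 genes of energy supply and oxygen rose. Myoglobin, Mb, which holds oxygen, stood at 133, 441 and 2072 TPM in young and 1842, 3652 and 6477 TPM in aged libraries and rose by 2.23 ± 0.63 (SE; adjusted p = 0.0103 by edgeR). Only aged 4 (1842 TPM) lay inside the young range. Ckm, muscle creatine kinase, stood at 115, 167 and 878 TPM in young and 671, 1918 and 3056 TPM in aged libraries and rose by 2.41 ± 0.57 (SE; adjusted p = 0.00393 by edgeR). Eno3, muscle enolase, rose by 2.09, Pygm, muscle glycogen phosphorylase, by 2.21 without overlap, and Ampd1, muscle AMP deaminase, by 2.57 from a level of 0.74 TPM (young median). The Ckm window (GRCm38.p6, chr7:19410844-19411143, forward strand) is shown as a contrast to Acta1, since it held 1 E-box and none of the other 3 motifs, so it has no capitals.
Ckm: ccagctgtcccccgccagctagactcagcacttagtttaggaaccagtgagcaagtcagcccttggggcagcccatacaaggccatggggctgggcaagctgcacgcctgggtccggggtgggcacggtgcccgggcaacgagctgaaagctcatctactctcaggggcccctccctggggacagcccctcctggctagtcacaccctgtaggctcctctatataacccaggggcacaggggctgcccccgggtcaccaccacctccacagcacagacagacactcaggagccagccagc

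Fast and slow isoforms were then compared within each library, by log2 of fast over slow TPM (each plus 0.1) for 8 pairs. Such a ratio does not depend on a library's depth, except where a partner is near the added 0.1. Where the slow partner is low and nearly level across libraries, the ratio can still follow the amount of muscle RNA in a library. Fast forms exceeded slow forms in every library for 7 pairs, and Mybpc2 stood below Mybpc1 in all libraries but young 1 and young 7. The ratio was higher in the aged libraries for 4 of the 8 pairs at an adjusted p of 0.05 (two-sided exact permutation test, adjusted over the 8 pairs; smallest possible p = 0.00117). These were the essential light chain and the 3 troponin subunits. All 4 calls ended in 11 of the 13 cases in which 1 library was left out, where the adjusted p ran from 0.0505 to 0.0960. In each of those 11 cases the 4 pairs kept an unadjusted p under 0.05. Only without young 4 or aged 6 were 4 pairs still called.

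Troponin C (Tnnc2 over Tnnc1) went from 8.97 ± 1.35 in young (SD, n = 7) to 11.08 ± 1.25 in aged libraries (SD, n = 6), a difference of 2.11 ± 0.72 (SE; exact permutation p = 0.0175, adjusted p = 0.0443), and 6 of 6 aged libraries lay above the young median. Troponin I (Tnni2 over Tnni1) went from 8.27 ± 1.28 in young (SD, n = 7) to 10.38 ± 1.38 in aged libraries (SD, n = 6), a difference of 2.10 ± 0.74 (SE; exact permutation p = 0.0221, adjusted p = 0.0443), again with 6 of 6 above. The essential light chain (Myl1 over Myl3) went from 6.91 ± 0.98 in young (SD, n = 7) to 8.81 ± 1.38 in aged libraries (SD, n = 6), a difference of 1.90 ± 0.67 (SE; exact permutation p = 0.021, adjusted p = 0.0443), with 6 of 6 above. Troponin T (Tnnt3 over Tnnt1) went from 6.94 ± 0.83 in young (SD, n = 7) to 8.44 ± 1.00 in aged libraries (SD, n = 6), a difference of 1.50 ± 0.51 (SE; exact permutation p = 0.0163, adjusted p = 0.0443), with 5 of 6 above. In all 4 pairs the ranges overlapped, and in all 4 the slow partner stood at 12.3 TPM or less in every library and was not called between ages or not tested. Across the 4 pairs the fast forms moved between ages and the slow forms were not called. Whether these low slow-form transcripts came from muscle fibres or from other cells was not tested. In young libraries the troponin I ratio was lowest in young 7 and young 1 (7.01 and 7.09), which held the least muscle RNA. It was highest in young 4 and young 2 (10.25 and 9.73), which held the most. Troponin C and the essential light chain were also lowest in young 7 and young 1. Troponin T was instead lowest in young 3 (5.82). Whether the 4 differences between ages reflect the amount of muscle RNA or a change of isoform use was not tested.

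**Figure D5:**
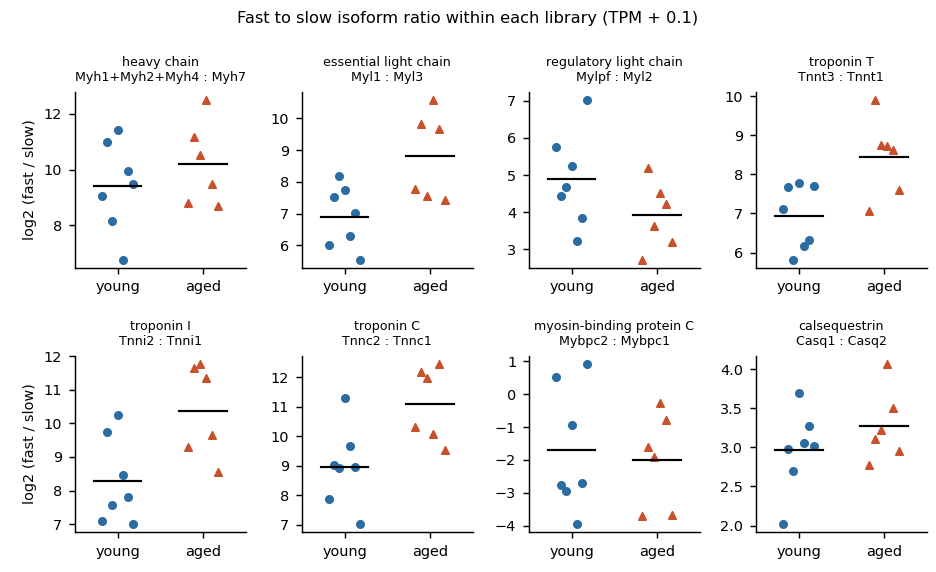
Each panel shows log2 of fast over slow TPM (each plus 0.1) for 1 isoform pair, with 1 point per library (blue circles, 7 young; red triangles, 6 aged) and a line at the mean. The panels have separate vertical axes that do not start at 0, and the aged mean lies higher by 2.11 for troponin C and differs by −0.98 for the regulatory light chain.

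The other 4 ratios were not called. The regulatory light chain (Mylpf over Myl2) stood at 3.22, 4.67 and 7.03 in young and 2.73, 3.93 and 5.20 in aged libraries, a difference of −0.98 ± 0.60 (SE; exact permutation p = 0.141, adjusted p = 0.226), with 1 of 6 aged libraries above the young median. Here the slow form, Myl2, stood at 0.73 TPM or more, with as few as 2 counts in a library. With 1 library left out the difference ran from −1.25 to −0.62, the latter without young 7, where Myl2 was lowest. Calsequestrin (Casq1 over Casq2) differed by 0.31 ± 0.27 (SE, adjusted permutation p = 0.385) and myosin-binding protein C (Mybpc2 over Mybpc1) by −0.30 ± 0.92 (adjusted permutation p = 0.759). The heavy chain ratio (Myh1, Myh2 and Myh4 over Myh7) differed by 0.79 ± 0.86 (adjusted permutation p = 0.432). It turned on the added value, because Myh7 was listed at 0 in young 1 and young 7. With 1 TPM added it was 1.97 (adjusted permutation p = 0.0186) and with 0.01 TPM added −0.39. Summed over all 14 fast-type and 8 slow-type genes, fast exceeded slow 45.2-fold in young and 48.2-fold in aged libraries (medians). Mybpc1 was the largest part of the slow sum, with a mean of 34.9 of 68.6 TPM in young and 175.6 of 292.2 TPM in aged libraries. The sum ratio therefore leans on a gene whose tie to slow fibres was not tested here. On the log2 scale this sum ratio was 5.54 ± 0.53 over the 7 young and 5.43 ± 0.54 over the 6 aged libraries (SD), a score over the members that is given with no test. Its direction depends on the weighting: as a mean of log2 TPM (plus 0.1) over fast minus slow genes, in which low genes weigh as much as high ones, it was 4.66 ± 0.90 in young and 5.55 ± 1.25 in aged libraries (SD).

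To see which genes kept step with the muscle content of a library, each level was also expressed as log2 TPM (plus 0.1) minus log2 of the summed TPM of the 20 shared genes. The SD of this relative level within an age (pooled over both ages) was below 0.3 for 17 genes, among them Ldb3 (0.13), Acta1 (0.15), Tcap (0.18), Cacna1s (0.18) and Tnnc2 (0.20). It was above 1 for 10 genes, the highest being Myh4 (3.40), Actn3 (1.78) and Mybpc2 (1.49). The slow-type genes Tnni1 (1.44), Myh7 (1.43), Tnnc1 (1.41) and Myl3 (1.15) were also in this group. Their counts were low, at 4 to 23 for Tnni1, 1 to 8 for Tnnc1 and 2 to 40 for Myl3. Myh7 was at 0 in young 1 and young 7, so counting error and the added 0.1 enter these SDs. Of the 17 genes below 0.3, 11 are themselves part of the 20-gene sum, among them Ldb3, Acta1, Tcap and Cacna1s, so their low SD is in part built in.

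Some genes shared the same 3 highest libraries at each age, whatever their order among the 3. Relative to the shared genes, Myh4 was highest in young 1, 4 and 7 and in aged 2, 4 and 5. Actn3, Pvalb, Tnni2 and Ckm were highest in the same 3 young and the same 3 aged libraries. Myh2, Myl2 and Actn2 were lowest in them. Tnni2 (SD 0.30), Ckm (0.42) and Actn2 (0.35) varied little beside Myh4 (3.40), so small gaps set their place. For Tnni2, aged 4 stood at −2.74 and aged 6 at −2.79. Ckm and Actn2 are themselves part of the 20-gene sum. Of the 10 genes with an SD above 1, 3 (Myh4, Actn3 and Pvalb) were highest in these libraries at both ages. The other 7 were neither highest nor lowest in exactly these libraries at both ages, but some came near. Mybpc2 had the same 3 young libraries, and among the aged ones aged 3 (−8.18) stood just above aged 2 (−8.26). Myl3 was lowest in the same 3 aged libraries. Actn3, with the same highest libraries as Myh4, stood at −5.97 in young 7 and −10.54 in young 5, and at −6.85 in aged 4 and −11.31 in aged 6. Myl2 stood at −9.71 and −6.32 in the same young pair and at −7.73 and −6.42 in the aged pair. These libraries were ordered by a measured level, so the pattern is a description, and the causes of the difference between libraries were not tested.

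Most muscle genes outside the list, taken from lists of related genes, were higher in the aged libraries as well. Of 69 further tested genes of muscle pathways, 52 rose and 4 fell, where 24.7% of all tested genes rose and 21.6% fell. These lists were chosen with earlier results of these data known, so they are no independent check. Among other sarcomere genes 24 of 27 rose (median log2 fold change 2.00), and among other muscle metabolism genes 14 of 14 rose (median 2.27). Beta-tropomyosin Tpm2 rose by 2.00 ± 0.43 (SE; adjusted p = 0.00206 by edgeR), while Tpm1 (0.32, edgeR adjusted p = 0.184), which many cell types use, was not called. The muscle forms of cytochrome oxidase subunits Cox8b and Cox7a1 rose by 2.80 and 2.69. Of 11 other calcium-handling genes 8 rose and 1 fell (median 1.53). The one that fell was Fkbp1a (−0.34), a release channel partner found in most cells. Atp2a2, the pump of slow fibres and of most other cells, was not called (0.17, edgeR adjusted p = 0.0819).

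Of 8 tested myogenic regulator and satellite cell genes, 2 rose and 1 fell, with a median log2 fold change of 0.14. The number that rose is near the 24.7% of all tested genes that rose, where 21.6% fell. Mef2a and Mef2c, the highest of them, stood at −0.11 and −0.02 and were not called. The 3 that were called are named after their values were seen: the regulators Myf6 (2.05) and Vgll2 (1.86) rose, and Cdh15, M-cadherin, fell (−1.75). Cdh15 stood at 57.0 to 81.9 TPM in young and 8.14 to 28.9 TPM in aged libraries. In young 1 and young 7, which held the least muscle RNA, it stood at 63.85 and 60.08 TPM. Which cells carried it was not tested. Pax7, the satellite cell marker, had too few counts to be tested. Of 4 tested developmental or specialised myosin genes 0 rose and 1 fell. Myl4, the embryonic light chain, was that gene (−0.67, edgeR adjusted p = 0.048), and Myh8, the perinatal heavy chain, stood at 0.43 and was not called. At an unadjusted p under 0.05 the number of these 4 that were higher was also 0. At the neuromuscular junction 4 of 5 tested genes rose, among them the receptor subunit Chrnb1 (1.13), and Lrp4 fell (−0.62).

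Markers of the other cells that could carry some of these genes were read beside them, and their counts are to be read against the 24.7% of all tested genes that rose and the 21.6% that fell. The 6 measured cardiac markers summed to 3.95 to 6.33 TPM in young and 3.15 to 5.40 TPM in aged libraries, with the highest, Tnni3, not called (−0.08) and Myh6, the atrial heavy chain, at 0.23 TPM or less in the aged libraries. The smooth muscle markers summed to 286 to 578 TPM in young and 522 to 1180 TPM in aged libraries. That list includes desmin, and of its 8 genes 2 rose, Des and Lmod1 (named after its value was seen), while Acta2 stood at −0.05 and was not called. The 6 tendon genes summed to 3641 to 4917 TPM in young and 5444 to 9590 TPM in aged libraries without overlap, but Fmod, a collagen-binding proteoglycan, made up 88.3 to 92.9% of that sum. Of the 6, 2 rose (Fmod by 0.58 and Thbs4 by 0.89), 2 fell (Mkx, −0.37, and Kera, −1.26), and Scx and Tnmd, which define tendon cells, were not called. All 3 tested adipocyte genes rose, with Fabp4 up by 1.48, and 3 of 6 Schwann cell genes rose, while the highest of these, Pmp22, stood at −0.09. Their part in the muscle gene result was not tested.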

How the data were processed

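Messenger RNA of 7 young and 6 aged libraries was sequenced. Per the labels' protocols, RNA enriched on oligo(dT) beads was made into strand-specific libraries and read in pairs on DNBSEQ. The submitters' processing notes name RSEM (version 1.3.1), Bowtie2 (version 2.3.4.3), HISAT2 (version 2.1.0) and DESeq2 (version 1.4.5), without their roles, and the build GRCm39. The gene annotation was not given in the sources used here. The authors deposited 1 table with expected counts, TPM and FPKM for each library, per the file headers. Of the deposited expected counts 5.30% were not whole. The deposited FPKM values were not used here.

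Groups came from the age in the titles. Expected counts were rounded and tested with edgeR 4.0.16 in R 4.3.3 (filterByExpr with a minimum count of 10 and total of 15, TMM, robust quasi-likelihood test, all 13 libraries, Benjamini-Hochberg over all 14067 tested genes, threshold 0.05). Levels are TPM. Isoform ratios used log2(TPM + 0.1) and two-sided exact permutation tests in scipy 1.17.1 (1716 arrangements of 7 and 6 libraries), adjusted over the 8 pairs. Alternatives were library sizes alone, RLE, no filter or a stricter one (a count of at least 10 in at least 10 libraries), DESeq2 1.42.0, limma 3.58.1 on log2(TPM + 1) and log2(TPM + 0.1), a replicate block, other pseudocounts and each library left out in turn. Scripts were tested on simulated data. No 2 libraries of an age agreed within sampling noise (smallest chi-square per degree of freedom 10.1). At these depths counting error is small beside the spread between libraries, except for genes near 1 TPM.

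The members and all gene lists were chosen with earlier results of these data known. By rule, all 42 members are reported, with levels for the members of the 8 pairs and the highest gene of each shared class. Outside genes are the 2 tested genes with the highest mean TPM in each pathway list and the highest of each cell type list. Acta2, Myh6, Pax7, the tendon genes other than Fmod and the genes said to be named after their values were seen fall outside that rule. Promoter windows are RefSeq's on GRCm38.p6 and matched by symbol.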

Additional observations from a re-analysis of the deposited data

Results flagged for a closer look

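A library stood far from the others of its age, by Dixon's test of the gap to the nearest value, in 7 of the 104 sets of values examined. All 7 were genes of the list. Chance alone gives about 1 in 20 where values are normally distributed, which TPM levels need not be. Young 4 was far above the other young libraries for 3 fast-type genes, Myh4 (40.99 TPM, next 14.78), Actn3 (25.66 TPM, next 10.94) and Mybpc2 (29.93 TPM, next 12.52). It was also far below them for the slow-type Tnni1 (0.53 TPM, next 0.95). Young 5 was far above the others for Myh7 (1.30 TPM, next 0.39) and young 2 for Tnnc1 (2.60 TPM, next 1.24). Among the aged libraries, aged 3 was far above the others for Myl3 (8.29 TPM, next 2.71). The slow-type values rest on few reads, with at most 8 counts of Tnnc1 and 23 of Tnni1 in any library.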

How the results depend on the processing

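Under every alternative run, 33 to 36 of the 42 genes were higher by test and 0 were lower, with the lowest count without aged 2 or aged 5. Of the 40 tested genes, 35 kept direction and call under all 21 alternatives, and Myh2, Pvalb, Actn3 and Myh7 changed call as given beside them. Myl3, never called, turned to −0.10 and −0.23 by limma with 1 and 0.1 added and to −0.14 with the replicate block. It was −0.04, −0.09 and −0.61 without young 1, young 3 or aged 3, and ranged up to 0.29 (without aged 4). Scaling by library size alone shifted the all-gene median (log2) from 0.01 to 0.24 and their calls from 3471 higher and 3033 lower to 7034 and 1253, while the median of the muscle genes was 2.29. The number of isoform pairs that differed ranged from 0 to 4 with 1 library left out, and was 5 with 1 TPM added. The heavy chain ratio turned to −0.39 with 0.01 TPM added and −0.35 on counts plus 0.5. That of myosin-binding protein C turned to 0.07, 0.14, 0.04 and 0.04 without young 1, young 7, aged 1 or aged 6, and ranged down to −0.67 (without young 5). Limma moved the fold by over 1.5 times for Myh2 (2.91 and 2.98), Myl2 (3.02 with 0.1 added), and Myh7 and Ampd1 (0.56 and 1.57 with 1 added), with no call changed. The summed fast to slow ratio (log2, aged minus young) was −0.11, and 0.89 as a mean of log2 values over genes. The difference in the share of the muscle genes was 1.50 percentage points of counts and 2.15 of TPM. The cause of these changes was not tested, other than that a library left out leaves fewer samples.

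With the replicate block, 35 genes were called higher, as without it. For the isoform pairs a block was added after seeing the data, as an exact sign-flip test within numbers 1 to 6 (smallest p 0.0312): 0 pairs were called after adjustment over the 8, 1 had an unadjusted p under 0.05 (troponin I), and the myosin-binding protein C difference turned to 0.14. An adjusted p under 0.05 would have needed most of the 8 pairs at that smallest p, so the count of 0 decides little. The labels do not say what the numbers stand for. The deviations of same-numbered libraries correlated at 0.25, 0.16, 0.26, −0.12, 0.11 and 0.17 for numbers 1 to 6, over 0.1 in 5 of 6, and 4 of 12 libraries correlated best with their own number. These values do not settle whether the numbers pair the libraries. The main tests took no pairing because the labels give none. Precision is limited by the number of libraries, and for Myh7, Tnni1, Tnnc1 and Myl3 by counts near the filter.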
